A study of Arabidopsis thaliana with 64 samples.

Results

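Leaves of wild-type (WT) Arabidopsis thaliana starved of fixed carbon were compared directly with dehydrated WT leaves, stress against stress, with no control library in the contrast. The comparison takes 5 of the 40 libraries that have values, 2 of WT starvation and 3 of WT dehydration, chosen by their labels. Plants of all groups were 4 weeks old and had grown with 16 hours of light a day. Starvation lasted 5 days and dehydration 4 hours, and the labels do not say how carbon was withheld, at what time of day leaves were taken, or which accession the WT was. The 3 WT control libraries show where an unstressed leaf stood, and like all 40 libraries they enter the estimate of the spread behind each SE and p. The mutants atg7-2 (autophagy), DSK2 RNAi (ubiquitin receptors of autophagy), bes1-D (a dominant allele of a brassinosteroid transcription factor) and bri1-301 (a weak allele of the brassinosteroid receptor) serve to set the same contrast beside that of WT, with 5 stress libraries of their own each. The labels do not tell whether replicates were separate plants, and p-values therefore reflect the spread among these libraries alone, which could be technical. Starvation libraries also carry their own run of sample numbers, so a difference in handling cannot be told apart from the treatment, nor the kind of stress from its duration.

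Plants answer both stresses with changes in the same leaf programmes. Under water loss the hormone abscisic acid (ABA) blocks PP2C phosphatases, releases SnRK2 kinases and switches on protective proteins such as dehydrins. When fixed carbon runs out, the kinase SnRK1 signals low energy, photosynthetic and growth genes are turned down, and the cell draws on amino acids, lipids and its own organelles, which autophagy delivers to the vacuole. Brassinosteroids promote growth through BES1, and BES1 is itself a cargo of autophagy under stress, bound by the receptor DSK2.

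The deposited values are reads per gene scaled to library size, named RPM by the authors, from 50-base single-end reads. The 5 libraries held 29113878 to 30375860 recovered reads and 21876 to 22376 genes with a read. A floor of 3 reads in a library, which covers counting error only, was 0.101 to 0.103 RPM. Differences below are starvation minus dehydration on the log2(RPM + 0.5) scale, positive where starvation was higher. This scale understates the change of low genes. RPM is not divided by transcript length, so levels are compared between libraries and not between genes. Each difference comes from limma fitted to all genes, with its standard error (SE) and a Benjamini-Hochberg adjusted p over 19824 genes, and a gene is called higher or lower at an adjusted p under 0.05. Pairs of values are starvation 1 and 2, and triplets are dehydration 1, 2 and 3. Of each list the members named first in each direction follow a rule given with the methods, and the further members named were chosen after their values were seen.

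Dehydration 3 stood apart from its group. Its expression sloped downward with log2 transcript length (-0.27), while dehydration 1 and 2 sloped upward (0.44 and 0.34), starvation 1 and 2 gave -0.18 and 0.00094, and the WT controls 0.21 to 0.45. The chi-square per degree of freedom of its reads was 151 against dehydration 1 and 116 against dehydration 2, compared with 14.6 between those 2 libraries and 25.3 between the starvation libraries. In a principal component analysis of the 5 libraries the first component held 85.5% of the variance and separated the treatments, and the second, with 12.6%, set dehydration 3 (71.4) apart from dehydration 1 and 2 (-37.8 and -24.7). Across genes the difference ran weakly with transcript length (Spearman's rho -0.153, a description, since genes are not independent). Counts that change by more than 1.5 times without this library, or without another of the 5, are given with and without it.

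Most of the measured transcriptome separated the stresses. Of 19824 genes tested 11181 were called (56.4%), 5149 higher in starvation (26%) and 6032 higher in dehydration (30.4%), and the median difference of all genes was -0.11. Differences over 1 on the log2 scale were called for 3274 genes higher in starvation and 4398 higher in dehydration, and differences over 2 for 1048 and 1659. In 13584 genes (68.5%) the libraries of the 2 groups did not overlap. Each list count below stands beside the 26% and 30.4% of all genes. Lists with a called share below 56.4% included autophagy (35.7%), the proteasome (36.1%), peroxisomal lipid breakdown (38.9%), ABA (44.4%), wax (45.5%) and brassinosteroid genes (47.1%). Others were the heat shock (50%), aquaporin (52.9%) and salicylic acid genes (55%), and the short housekeeping (16.7%), floral (28.6%) and phloem lists (33.3%). Without dehydration 3 the calls were 11604, of which 4869 were higher in starvation and 6735 higher in dehydration, with a median of all genes of -0.21, and 10336 genes were called in the same direction with and without it. These are bulk leaves, in which fewer cells of a type and less RNA per cell cannot be told apart.

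**Figure D1:**
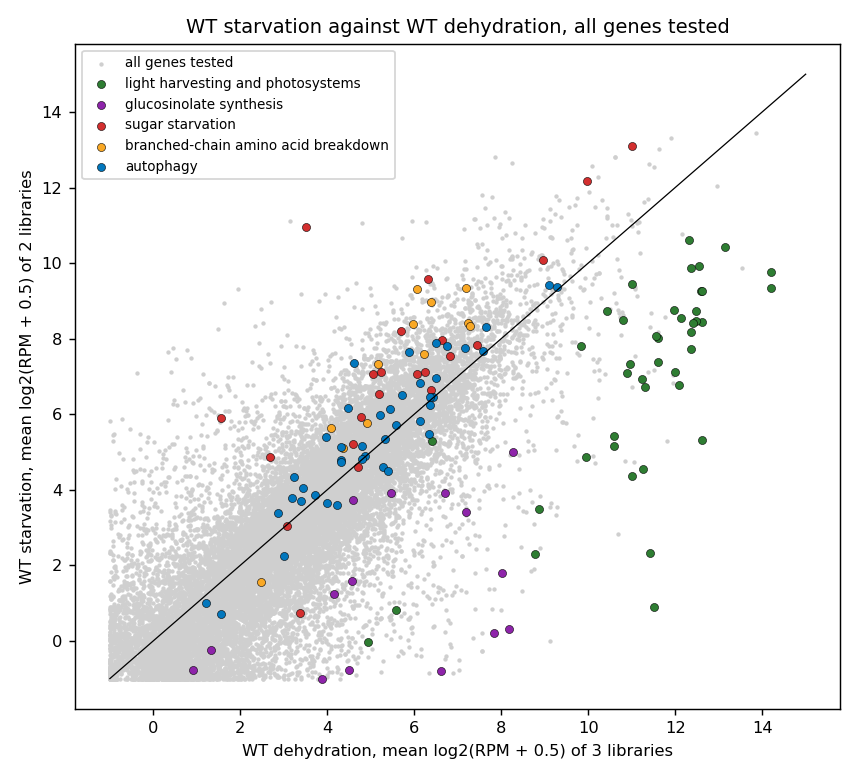
Mean level in WT starvation (vertical, 2 libraries) against WT dehydration (horizontal, 3 libraries), both as log2(RPM + 0.5), for all 19824 genes tested (grey) and 5 gene lists (coloured); the line marks equal levels. The 42 light-harvesting and photosystem genes lie below the line, as do the 15 glucosinolate genes, and most sugar starvation genes lie above it.

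The controls show on which side of an unstressed leaf the stresses parted. Of the 6032 genes higher in dehydration, 4265 (70.7%) had a control mean above both stress means and 1761 (29.2%) one between them. Of the 5149 genes higher in starvation, 2483 (48.2%) had a control mean below both stresses and 2650 (51.5%) one between them. These positions are counts of group means, with no test of either stress against the control.

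Dehydrins and other late embryogenesis abundant (LEA) and cold-regulated proteins, which protect membranes and proteins when cells lose water, did not move as a block. Of 16 members tested 8 were higher in starvation, 5 were higher in dehydration and 3 were not called (median 0.68, against -0.11 for all genes). LEA7, a seed-type LEA protein, was 428 and 569 RPM against 1.17, 1.703 and 7.51 (log2 7.32, SE 0.80, adjusted p = 4.88e-09), with a control mean of 0.505 RPM. RAB18, an ABA-responsive dehydrin, was 2335 and 2014 RPM against 62.0, 64.6 and 109.6 (log2 4.83, SE 0.41, adjusted p = 2.01e-11). Both genes stood far higher in each starvation library than in any dehydration library. RD29B, a classical ABA reporter, was 38.7 and 57.6 RPM against 4.13, 2.72 and 3.35 (log2 3.63, SE 0.81, adjusted p = 0.000321). The other 5 members higher in starvation were RD20, a caleosin, and the dehydrins LTI30, ERD10, ERD14 and COR47, with differences of 2.15, 2.06, 1.34, 1.31 and 1.09. The calls for ERD10 and COR47 are lost without starvation 2.

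The 5 members higher in dehydration were cold-regulated proteins and RD29A. COR15A, a chloroplast LEA protein that stabilises membranes, was 13.1 and 7.93 RPM against 302, 296 and 607 (log2 -5.15, SE 0.49, adjusted p = 3e-10). KIN1 was 4.28 and 2.76 RPM against 71.6, 73.1 and 122 (log2 -4.46, SE 0.44, adjusted p = 6.75e-10), and its close relative KIN2 differed by -2.79 and the COR15A relative COR15B by -3.56. RD29A, which lies beside RD29B on the chromosome, was 16.0 and 19.9 RPM against 206, 186 and 64.5 (log2 -2.89, SE 0.62, adjusted p = 0.000222). The neighbours RD29A and RD29B thus had called differences of opposite direction, and the libraries of the 2 groups did not overlap for either gene. KIN1 and KIN2, like COR15A and COR15B, are close copies whose shared reads may have been split between them, and how such reads were counted is not stated in the labels. For all 5 genes the control mean lay below the mean of dehydration and above that of starvation.

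**Figure D2:**
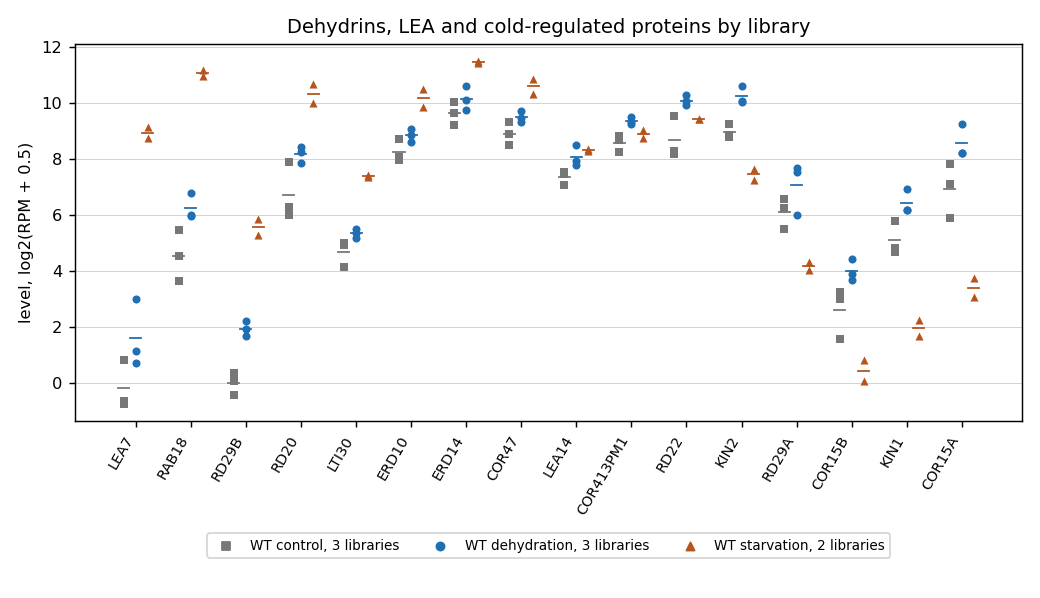
Levels of the 16 dehydrin, LEA and cold-regulated genes, as log2(RPM + 0.5), in 3 WT control (grey squares), 3 WT dehydration (blue circles) and 2 WT starvation libraries (orange triangles), with short bars at group means. The starvation libraries lie above those of dehydration for the 8 genes called higher in starvation and below them for the 5 called higher in dehydration.

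The sequence upstream of these genes is shown because both directions occur within one group of protective proteins. The 250 bases before the annotated gene start are given for the 3 genes with the largest difference in each direction whose window holds a searched motif and overlaps no other gene, 5′ to 3′ on the gene's strand, from the TAIR10.1 assembly (RefSeq). Capitals mark 8 motif families, each searched on both strands. The ABA-responsive element ABRE is spelled ACGTGGC or else ACGTGTC, and the G-box CACGTG. The dehydration-responsive element DRE is spelled GCCGAC or else ACCGAC, and the evening element AAATATCT. The sugar-responsive element is spelled TATCCA, the I-box core GATAAG, the proline-responsive element ACTCAT and the site II element TGGGCC. An ABRE and a G-box can share bases.
LEA7, chr1:19619474-19619723, plus strand: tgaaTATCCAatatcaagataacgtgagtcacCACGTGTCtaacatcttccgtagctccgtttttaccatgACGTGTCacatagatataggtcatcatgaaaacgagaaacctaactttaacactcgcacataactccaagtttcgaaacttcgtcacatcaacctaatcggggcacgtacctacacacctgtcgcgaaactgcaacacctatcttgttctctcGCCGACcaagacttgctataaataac
RD29B, chr5:21236771-21237020, plus strand: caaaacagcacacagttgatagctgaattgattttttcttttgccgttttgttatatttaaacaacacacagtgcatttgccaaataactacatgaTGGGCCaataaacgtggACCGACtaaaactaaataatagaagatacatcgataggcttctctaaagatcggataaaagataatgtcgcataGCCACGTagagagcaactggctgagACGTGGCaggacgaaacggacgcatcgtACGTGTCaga
RD20, chr2:14146556-14146805, minus strand: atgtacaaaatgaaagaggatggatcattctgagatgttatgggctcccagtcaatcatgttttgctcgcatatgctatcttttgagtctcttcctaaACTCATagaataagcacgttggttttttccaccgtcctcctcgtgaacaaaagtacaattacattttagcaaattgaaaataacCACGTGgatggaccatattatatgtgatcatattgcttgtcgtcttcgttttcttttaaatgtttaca
COR15A, chr2:17712331-17712580, minus strand: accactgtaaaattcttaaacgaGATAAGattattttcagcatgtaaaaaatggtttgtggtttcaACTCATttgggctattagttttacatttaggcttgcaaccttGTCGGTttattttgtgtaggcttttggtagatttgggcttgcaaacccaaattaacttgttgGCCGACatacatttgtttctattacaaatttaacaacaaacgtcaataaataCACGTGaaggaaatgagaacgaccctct
KIN1, chr5:5209467-5209716, plus strand: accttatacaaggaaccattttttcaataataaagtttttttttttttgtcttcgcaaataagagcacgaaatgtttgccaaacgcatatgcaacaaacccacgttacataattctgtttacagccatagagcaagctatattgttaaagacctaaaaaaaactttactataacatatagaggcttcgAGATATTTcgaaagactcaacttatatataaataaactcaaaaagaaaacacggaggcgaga
RD29A, chr5:21240467-21240716, plus strand: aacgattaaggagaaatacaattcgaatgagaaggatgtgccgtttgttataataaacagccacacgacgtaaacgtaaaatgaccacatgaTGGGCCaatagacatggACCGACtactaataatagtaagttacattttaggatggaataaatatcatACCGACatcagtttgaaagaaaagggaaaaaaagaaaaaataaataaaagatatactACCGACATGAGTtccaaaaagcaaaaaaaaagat
The window of RD29B holds 3 ABRE matches and 1 DRE match, and that of LEA7 holds 2 ABRE matches and 1 DRE match. The window of RD29A holds 3 DRE matches and no ABRE, and that of COR15A holds 2 DRE matches and no ABRE. RD20 and KIN1 hold neither, with a G-box in the first and an evening element in the second. Over the list, an ABRE stands in 3 of 8 windows of the members higher in starvation and in 0 of 5 of those higher in dehydration, and a DRE in 3 of 8 and 2 of 5. Across 19750 windows of genes tested, 7.58% hold an ABRE and 7.98% a DRE. The ABRE share was 9.88% of 5124 windows of genes called higher in starvation and 6.61% of 6020 windows of genes called higher in dehydration, and the DRE share 8.72% and 7.33%. A match describes letters in a short window and was not tested as a site. The windows end at the annotated gene start, so a motif missing there may stand further upstream or past that start.

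ABA synthesis, breakdown and signalling genes were higher in starvation in 14 of 36 members and higher in dehydration in 2 (median 0.59). AHG1 and HAI3, which belong to the clade A PP2C phosphatases that hold ABA signalling back, were 5.05 and 8.55 RPM against 0, 0.0341 and 0.205 (log2 3.63, SE 0.21, adjusted p = 3.71e-15) and 5.05 and 5.45 RPM against 0, 0 and 0.0683 (log2 3.46, SE 0.19, adjusted p = 1.17e-15). The dehydration values of both lie near or under the floor of 3 reads. Of the other 7 phosphatases of that clade, HAB1, HAI1 and HAB2 were higher in starvation (log2 2.72, 1.89 and 0.85), and PP2CA, ABI2, HAI2 and ABI1 were not called (log2 0.79, 0.60, 0.18 and -0.34). NCED3, the rate-limiting enzyme of ABA synthesis under drought, was 59.2 and 68.0 RPM against 32.0, 26.4 and 32.5 (log2 1.06, SE 0.37, adjusted p = 0.0155), and its call, like that of HAB2, is lost without starvation 2. The ABA hydroxylases CYP707A1 and CYP707A4, which break ABA down, differed by 1.97 and 1.80. BG1, a glucosidase that frees ABA from its glucose ester, went the other way at 22.8 and 28.4 RPM against 1356, 1374 and 788 (log2 -5.45, SE 0.45, adjusted p = 1.1e-11). The other member higher in dehydration, the bZIP factor ABF1, differed by -0.70, a call lost in 5 of 21 alternatives, among them those without dehydration 1, dehydration 2 or starvation 1, which each leave 1 member higher in dehydration.

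Proline breakdown was led by ProDH1, the proline dehydrogenase that feeds electrons from proline into respiration, at 2380 and 2052 RPM against 54.4, 67.6 and 63.0 (log2 5.16, SE 0.72, adjusted p = 3.73e-07). The control mean of ProDH1 was 318 RPM, between the stresses. Both other breakdown genes, P5CDH and ProDH2, were also higher in starvation (log2 1.53 and 1.42). P5CS1, the stress-induced enzyme of proline synthesis, was 211 and 258 RPM against 462, 378 and 275 and was not called (log2 -0.64, SE 0.51, adjusted p = 0.3), nor was P5CS2 (log2 0.51), and P5CR, the next enzyme, was higher in dehydration (log2 -0.77, adjusted p = 0.000598).

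Osmoprotectant, water channel and cuticle genes gave mixed directions. Of 5 galactinol and raffinose synthesis genes 3 were higher in dehydration, the raffinose synthase RS5 (4.18 and 3.62 RPM against 16.0, 15.4 and 12.9, log2 -1.79) and the galactinol synthases GOLS3 and GOLS4 (log2 -2.06 and -0.83), the call for GOLS4 being lost without dehydration 2 or starvation 1. GOLS2, the drought-induced member, was 16.0 and 19.3 RPM against 49.9, 43.1 and 44.7 and was not called (log2 -1.36, adjusted p = 0.097). Among 17 aquaporins 4 were higher in starvation, led by PIP1;5 and TIP1;2 (log2 1.604 and 1.21), and 5 in dehydration, led by PIP2;8 and PIP2;5 (log2 -4.18 and -1.62). Both aquaporin counts lie near the shares of all genes, 26% and 30.4%. Of 11 wax genes 4 were higher in dehydration, led by the wax enzymes CER2 and CER1 (log2 -2.37 and -1.39), and 1 in starvation, the wax-activating factor MYB96 (log2 1.301, adjusted p = 0.0278). The MYB96 call is lost without dehydration 3, and without starvation 2, which each leave 0 wax genes higher in starvation, and the CER1 call is lost without starvation 1.

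Rapid stress genes, mostly transcription factors, were higher in starvation in 9 of 18 members and in dehydration in 2 (median 0.80). TCH4, a touch-induced cell wall enzyme, was 548 and 477 RPM against 11.4, 13.6 and 16.2 (log2 5.18, SE 0.74, adjusted p = 5.95e-07). ZAT12, a zinc finger factor of oxidative stress, was 78.2 and 70.3 RPM against 8.67, 7.32 and 14.4 (log2 2.87, SE 0.33, adjusted p = 8.84e-09). Both stood higher in each starvation library than in any dehydration library. DREB2A, the drought branch of the DRE-binding factors, was 19.5 and 41.1 RPM against 6.81, 6.74 and 3.58 (log2 2.27, SE 0.45, adjusted p = 8.62e-05). Of the cold branch, CBF1 was higher in starvation, CBF3 higher in dehydration and CBF2 not called (log2 0.77, -1.87 and -0.87). The CBF1 call is lost in 7 of 21 alternatives, among them those without dehydration 1, dehydration 2, starvation 1 or starvation 2. The repressor ERF4 was the other member higher in dehydration (log2 -1.58).

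Sugar starvation and energy signalling genes were higher in starvation in 16 of 22 members and in dehydration in 1 (median 1.23). DIN2, a beta-glucosidase induced in darkness, was 1476 and 2655 RPM against 10.6, 17.37 and 6.90 (log2 7.45, SE 0.81, adjusted p = 3.91e-09). DIN9, a phosphomannose isomerase, was 51.7 and 67.1 RPM against 2.44, 2.89 and 2.01 (log2 4.34, SE 0.28, adjusted p = 4.42e-14). DIN6, the asparagine synthetase ASN1, which packs nitrogen for transport when carbon is short, was 4906 and 4409 RPM against 924, 1044 and 1062 (log2 2.21, SE 0.30, adjusted p = 3.4e-07). Each of these genes was higher in both starvation libraries than in every dehydration library, and so was DIN1, a senescence-associated protein, at 8594 and 8922 RPM against 1557, 2332 and 2352 (log2 2.099, SE 0.35, adjusted p = 6.2e-06). Of the catalytic subunits of SnRK1, KIN11 was higher in starvation (log2 1.15) and KIN10 was not called (log2 0.24, adjusted p = 0.193). The member higher in dehydration was TPS5, a trehalose phosphate synthase-like protein, at 1.28 and 1.07 RPM against 13.7, 14.9 and 4.58 (log2 -2.63, SE 0.41, adjusted p = 2.5e-06).

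Amino acid genes were called in both directions. Branched-chain amino acid breakdown genes were higher in starvation in 10 of 12 members and higher in dehydration in 1 (median 1.46). BCAT2, a transaminase of the first step, was 664 and 617 RPM against 61.6, 73.3 and 64.8 (log2 3.26, SE 0.41, adjusted p = 6.63e-08), and DIN4, a subunit of the branched-chain ketoacid dehydrogenase, was 481 and 513 RPM against 71.0, 89.3 and 92.1 (log2 2.56, SE 0.21, adjusted p = 1.64e-11). The exception was BCKDH-A2, a second gene for a subunit of that dehydrogenase, at 2.09 and 2.90 RPM against 5.33, 5.48 and 4.54 (log2 -0.92, adjusted p = 0.000889). Members of a list named nitrogen remobilisation went mostly the other way, with 9 of 13 higher in dehydration and 2 in starvation (median -0.82). The list also holds assimilation enzymes and transporters, so its count does not describe remobilisation alone. The glutamate dehydrogenases GDH1 and GDH2 stand with DIN6 in the sugar starvation list. Both were called higher in starvation (ratios of means 1.91 and 9.58), the GDH1 call being lost without dehydration 3 or starvation 2. GLN2, the chloroplast glutamine synthetase, was 11.5 and 12.7 RPM against 652, 656 and 418 (log2 -5.49, SE 0.30, adjusted p = 8.9e-16). ASN2 and ASN3, asparagine synthetases like DIN6, differed by -4.15 and -1.85, opposite to DIN6. The 2 members higher in starvation were PPDK, pyruvate phosphate dikinase (log2 1.63), and GLN1;3, a cytosolic glutamine synthetase (log2 0.66), the latter call being lost without starvation 2, which leaves 1.

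Peroxisomal lipid breakdown genes were called higher in starvation in 5 of 18 members, near the 26% of all genes, and higher in dehydration in 2 (median 0.40). ICL, isocitrate lyase of the glyoxylate cycle, was 8.59 and 6.41 RPM against 0.206, 0.443 and 0.273 (log2 3.31, SE 0.23, adjusted p = 2.47e-13), while MLS, malate synthase of the same cycle, was 0.101 and 0.276 RPM against 0.447, 0.306 and 0.341 and was not called (log2 -0.34). The citrate synthase CSY2 differed by 1.59. The 2 members higher in dehydration were the malate dehydrogenases PMDH2 and PMDH1 (log2 -2.81 and -0.60), the PMDH1 call being lost without starvation 2, which leaves 1. The number higher in starvation depended on the method, with 9 under TMM scaling, 9 with edgeR and 11 with DESeq2.

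Starch and sucrose genes split evenly, 7 of 18 in each direction. BAM5, a beta-amylase outside the chloroplast, was 0.168 and 0.345 RPM against 67.6, 150.3 and 117 (log2 -7.15, SE 0.43, adjusted p = 1.05e-14), and ADG1, the small subunit of ADP-glucose pyrophosphorylase in starch synthesis, was 2.86 and 3.55 RPM against 160.3, 136 and 74.3 (log2 -5.00, SE 0.31, adjusted p = 1.2e-14). The other 5 members higher in dehydration also act on starch in the chloroplast or on the maltose it releases (SEX1, DPE2, BAM3, GBSS1 and SS1, log2 -4.83, -3.83, -3.21, -2.52 and -2.41). Higher in starvation were the sucrose synthase SUS3, at 34.5 and 48.8 RPM against 4.61, 5.07 and 2.08 (log2 3.31, SE 0.44, adjusted p = 2.07e-07), and the glucose phosphate translocator GPT2, at 235 and 274 RPM against 30.6, 35.5 and 28.9 (log2 2.99, SE 0.33, adjusted p = 6.85e-09). The other 5 members in that direction were SUS1, the amylases BAM1 and AMY1 and the sugar transporters STP13 and STP14, between 1.29 and 1.97 on the log2 scale.

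**Figure D3:**
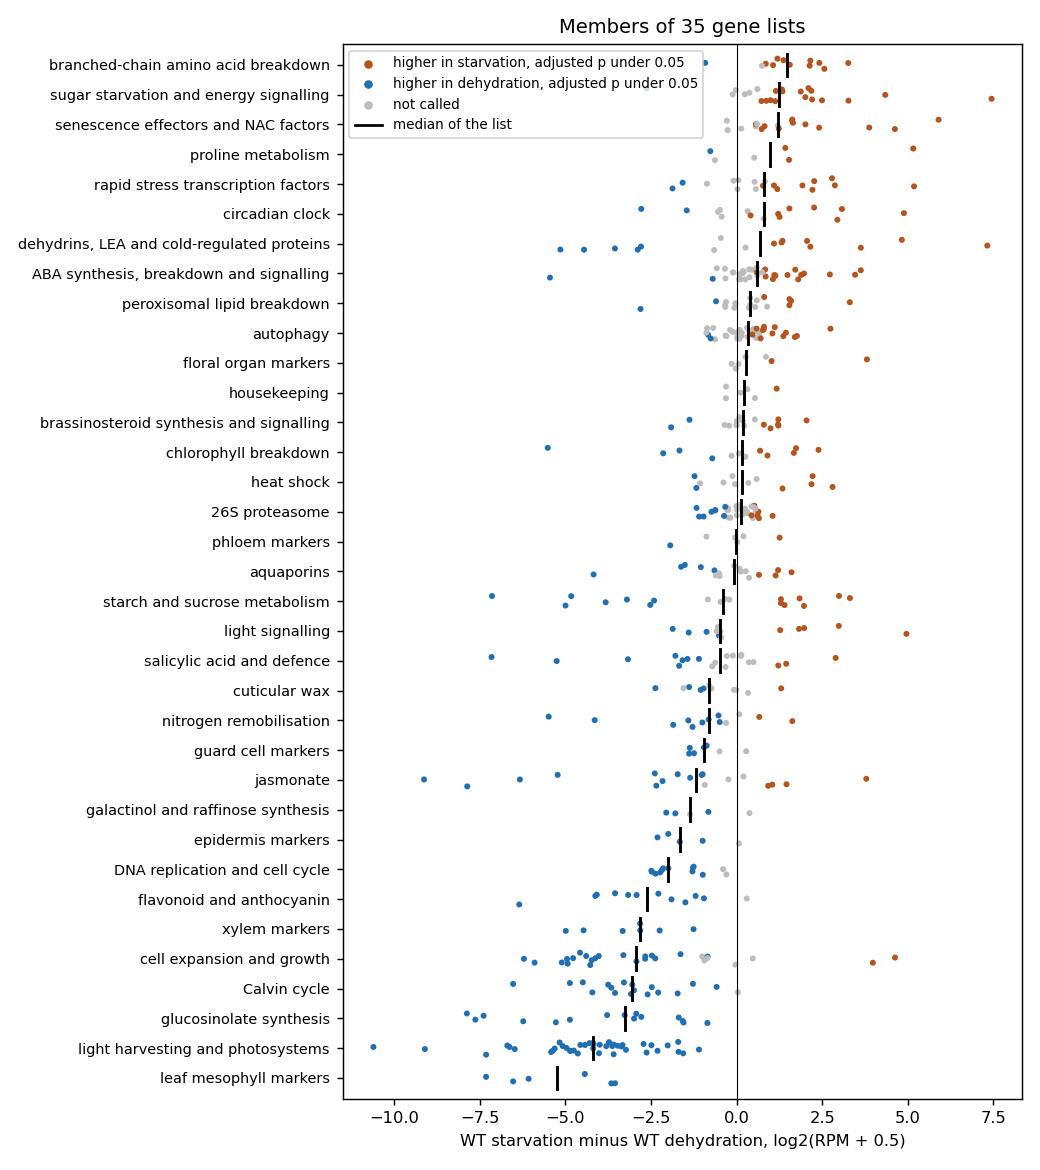
Difference of each tested member of 35 gene lists, WT starvation minus WT dehydration in log2(RPM + 0.5), one row per list with its median as a black bar; orange points are called higher in starvation, blue points higher in dehydration and grey points not called. Branched-chain amino acid breakdown has the highest median (1.46) and the leaf mesophyll markers the lowest (-5.26).

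Autophagy transcripts were higher in starvation in 13 of 42 members and higher in dehydration in 2, with a median of 0.35. The share of all genes called higher in starvation, 26%, is near that of the list. Its 2 members higher in dehydration stand beside 30.4% of all genes. In both directions together 35.7% of the list was called, against 56.4% of all genes. ATG8 proteins, which coat the growing autophagosome, accounted for 3 of the 13. ATG8H was 161 and 167 RPM against 18.9, 21.1 and 35.1 (log2 2.74, SE 0.36, adjusted p = 1.41e-07), ATG8B 218 and 182 RPM against 42.3, 56.1 and 83.9 (log2 1.76, SE 0.25, adjusted p = 4.7e-07) and ATG8A 233 and 213 RPM against 84.2, 94.6 and 158 (log2 1.04, SE 0.27, adjusted p = 0.00165). The 6 other members, ATG8C, ATG8D, ATG8E, ATG8F, ATG8G and ATG8I, were not called, with differences of -0.12, 0.02, 0.67, 0.30, 0.15 and 0.68. In 5 of these the libraries overlapped, ATG8E being the exception, and without dehydration 3 both ATG8E and ATG8I were called higher in starvation. ATG7, the activating enzyme of ATG8, was 33.3 and 52.7 RPM against 19.7, 17.7 and 9.87 (log2 1.44, SE 0.31, adjusted p = 0.000198). NBR1, a receptor for ubiquitinated cargo, was 723 and 606 RPM against 759, 622 and 507 and was not called (log2 0.09, SE 0.18, adjusted p = 0.677). DSK2B, a ubiquitin receptor of the same pathway, was 220.4 and 210.4 RPM against 165, 147 and 122 (log2 0.58, SE 0.18, adjusted p = 0.00639), and DSK2A, its neighbour and close copy, was 53.2 and 59.7 RPM against 88.9, 78.9 and 47.3 and was not called (log2 -0.29, SE 0.23, adjusted p = 0.277). The DSK2B call is lost without starvation 1, and DSK2A is called higher in dehydration without dehydration 3. The 2 members higher in dehydration were ATG10 and ATG18D (log2 -0.76 and -0.83). Without dehydration 3 the list gave 12 members higher in starvation and 7 higher in dehydration.

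Senescence genes were higher in starvation in 12 of 18 members and higher in dehydration in 0 (median 1.22). SWEET15, a sucrose exporter also known as SAG29, was 296 and 392 RPM against 1.62, 8.45 and 9.39 (log2 5.90, SE 0.94, adjusted p = 3.75e-06). BFN1, a nuclease of senescence and cell death, was 49.9 and 55.8 RPM against 1.27, 1.74 and 2.05 (log2 4.62, SE 0.47, adjusted p = 9.12e-10). For both the starvation libraries lay far above those of dehydration. The NAC transcription factors NAC087, NAC055, RD26 and NAP, regulators of stress and senescence, differed by 3.87, 2.41, 1.62 and 0.73, the NAP call being lost without dehydration 3 or starvation 2. SAG12, a cysteine protease of late senescence, was 8.15 and 5.20 RPM against 1.65, 2.25 and 4.302 and was not called (log2 1.203, SE 0.81, adjusted p = 0.21).

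Chlorophyll breakdown genes were called in both directions, 5 of 12 higher in starvation, or 3 without starvation 2, and 4 in dehydration. NYE2, which starts the loss of chlorophyll, was 215 and 277.3 RPM against 40.1, 43.4 and 56.2 (log2 2.39, SE 0.29, adjusted p = 3.68e-08), and NYC1, a chlorophyll b reductase, was 660.0 and 936 RPM against 267, 258 and 190.5 (log2 1.74, SE 0.27, adjusted p = 2.65e-06). CLH1, a chlorophyllase induced by jasmonate, was 2.86 and 1.72 RPM against 85.6, 105 and 215 (log2 -5.52, SE 0.34, adjusted p = 1.61e-14), and CLH2 differed by -2.15. The starvation libraries lay above those of dehydration for the first pair and below them for the second. Subunits of the 26S proteasome, the other main route of protein breakdown, were called higher in starvation in 6 of 36 and in dehydration in 7 (median 0.12), with RPT3 (log2 1.05) and RPN2A (log2 -1.17) at the ends. These shares lie below the 26% and 30.4% of all genes. Both counts moved with single libraries. Without dehydration 3 they were 3 and 7, without starvation 1 they were 2 and 2, and without starvation 2 they were 3 and 4. The count higher in dehydration was 2 without dehydration 1 and 4 without dehydration 2. With edgeR the counts were 10 and 6 and with DESeq2 12 and 6. The RPN2A libraries overlapped, since dehydration 3 lay between the starvation libraries, and its call is lost without starvation 1, dehydration 1 or dehydration 2.

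Photosynthesis genes separated the stresses in one direction. All 42 light-harvesting and photosystem genes tested were higher in dehydration (median -4.18), under each of the 21 alternatives, and so were 17 of 18 Calvin cycle genes (median -3.07), or 16 to 17 over the alternatives. The share of all genes called higher in dehydration was 30.4%. LHCB1.2, a main light-harvesting protein of photosystem II, was 1.38 and 1.34 RPM against 2955, 2730 and 3042 (log2 -10.61, SE 0.31, adjusted p = 5.64e-22), and LHCB1.1 was 4.95 and 4.07 RPM against 2501, 2612 and 3188 (log2 -9.11, SE 0.28, adjusted p = 8.28e-22). The ratio of the means was 2140-fold for LHCB1.2 and 614-fold for LHCB1.1, and the dehydration libraries of both lay near the control means of 3150 and 2967 RPM. LHCB3, another protein of the same antenna, was 44.8 and 34.0 RPM against 6088, 6013 and 6890 (log2 -7.32, SE 0.19, adjusted p = 4.67e-23).

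Members of the same families differed in how far they parted. The other LHCB1 genes, LHCB1.3, LHCB1.4 and LHCB1.5, differed by -4.43, -3.73 and -4.85, and LHCB1.3 kept 995 and 761 RPM in starvation. LHCB1 genes are near-identical copies, and their shared reads were treated in a way the labels do not state, so the split between copies is uncertain. The smallest differences of the list were those of LHCA5 and PSBY (log2 -1.10 and -1.56). Among the Rubisco small subunits, which are also close copies, RBCS3B was 43.4 and 34.3 RPM against 3336, 3323 and 4254 (log2 -6.53, SE 0.23, adjusted p = 2.77e-20), and RBCS1B, RBCS2B and RBCS1A differed by -4.87, -4.21 and -3.66. In the chloroplast glyceraldehyde phosphate dehydrogenase, GAPB was 15.2 and 13.9 RPM against 352, 344 and 319.6 (log2 -4.49) and GAPA1, the other kind of subunit, 736 and 554 RPM against 944, 865 and 1079 (log2 -0.58, adjusted p = 0.0122), a call lost without starvation 2. RPE, ribulose phosphate epimerase, was the Calvin cycle member not called (log2 0.04, adjusted p = 0.887).

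Clock and light signalling genes also differed, and in these the time of sampling cannot be told apart from the stress. Among 15 clock genes 8 were higher in starvation and 2 in dehydration (median 0.79). LHY, a morning-phased core factor, was 65.4 and 76.9 RPM against 1.89, 1.87 and 1.98 (log2 4.89, SE 0.34, adjusted p = 3.2e-13), and its partner CCA1 and relative RVE8 differed by 2.94 and 3.08. TOC1, LUX and ELF4, which peak in the evening, were also higher in starvation (log2 1.54, 1.25 and 1.21). GI, which links the clock to flowering, was 7.85 and 12.1 RPM against 119.5, 95.3 and 30.2 (log2 -2.79, SE 0.52, adjusted p = 3.58e-05), and FKF1 differed by -1.46. Of 13 light signalling genes 5 were higher in starvation and 4 in dehydration. HFR1, a shade-induced helix-loop-helix factor, was 197 and 187 RPM against 5.47, 6.84 and 4.88 (log2 4.96, SE 0.35, adjusted p = 4.07e-13), and ATHB2, another shade marker, differed by 2.98. The dark-acting factors PIF1, PIF3 and PIF4 were higher in dehydration (log2 -1.40, -1.87 and -0.52) and PIF5 was not called (log2 -0.58). The PIF4 call is lost without dehydration 1, dehydration 2, starvation 1 or starvation 2.

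Among 17 brassinosteroid genes 6 were higher in starvation and 2 in dehydration (median 0.18). DWF4, a rate-limiting enzyme of synthesis, was 16.2 and 16.0 RPM against 2.96, 3.75 and 3.96 (log2 2.04, SE 0.37, adjusted p = 2.16e-05), and the synthesis enzymes BR6OX2, ROT3 and CPD differed by 1.22, 1.22 and 0.99. The remaining members higher in starvation were BIN2, the kinase that inactivates BES1, and BEH4, a homologue of BES1 (log2 0.80 and 1.21). BES1 itself was 68.6 and 62.0 RPM against 241, 261 and 239, with a control mean of 288 RPM (log2 -1.91, SE 0.20, adjusted p = 1.33e-09). Both starvation libraries of BES1 lay below every dehydration library, while its closest relative BZR1 was 59.1 and 65.5 RPM against 61.5, 59.2 and 41.5 and was not called (log2 0.22, adjusted p = 0.238). BRI1, the receptor, was 24.6 and 21.1 RPM against 91.2, 75.7 and 31.3 (log2 -1.38, SE 0.40, adjusted p = 0.00381), and its coreceptor BAK1 was not called (log2 0.01). The BRI1 call is lost in 1 of 21 alternatives, the fit on the 5 WT stress libraries alone.

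Growth genes were higher in dehydration in 20 of 27 members and in starvation in 2 (median -2.93). EXPA3, an expansin that loosens cell walls, was 0.943 and 1.00 RPM against 120.1, 108 and 98.7 (log2 -6.21, SE 0.26, adjusted p = 1.56e-18), and the growth-promoting factor PRE6 2.12 and 1.76 RPM against 140.4, 172 and 126 (log2 -5.90, SE 0.30, adjusted p = 1.42e-16). SAUR19 to SAUR24, small auxin-induced genes that are close copies of one another, differed by -2.67 to -4.96. The 2 wall enzymes with the opposite direction were XTH15, at 38.7 and 20.47 RPM against 0.791, 0.885 and 0.376 (log2 4.63, SE 0.85, adjusted p = 3.13e-05), and XTH24, at 3514 and 3398 RPM against 209.8, 236 and 211 (log2 3.98, SE 0.39, adjusted p = 5.16e-10). Sums of the list went the other way, at 3595 to 3749 RPM in starvation, 1114 to 1154 in dehydration and 1390 to 2136 in the WT controls. XTH24 made up most of the starvation sum. The control mean lay above both stresses in 23 of 27 members. DNA replication and cell cycle genes were higher in dehydration in 11 of 13 members (median -1.99, or -2.15 with the 2 genes at 0 in starvation set to the floor). CDKB2;1, a mitotic kinase, was 1.38 and 1.27 RPM against 9.49, 10.8 and 8.81 (log2 -2.48, SE 0.25, adjusted p = 8.59e-10). CYCB1;2, a mitotic cyclin, was at 0 in both starvation libraries and at 2.34, 2.45 and 1.06 RPM in dehydration, at least 19.1-fold higher against a floor of 3 reads per library.

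**Figure D4:**
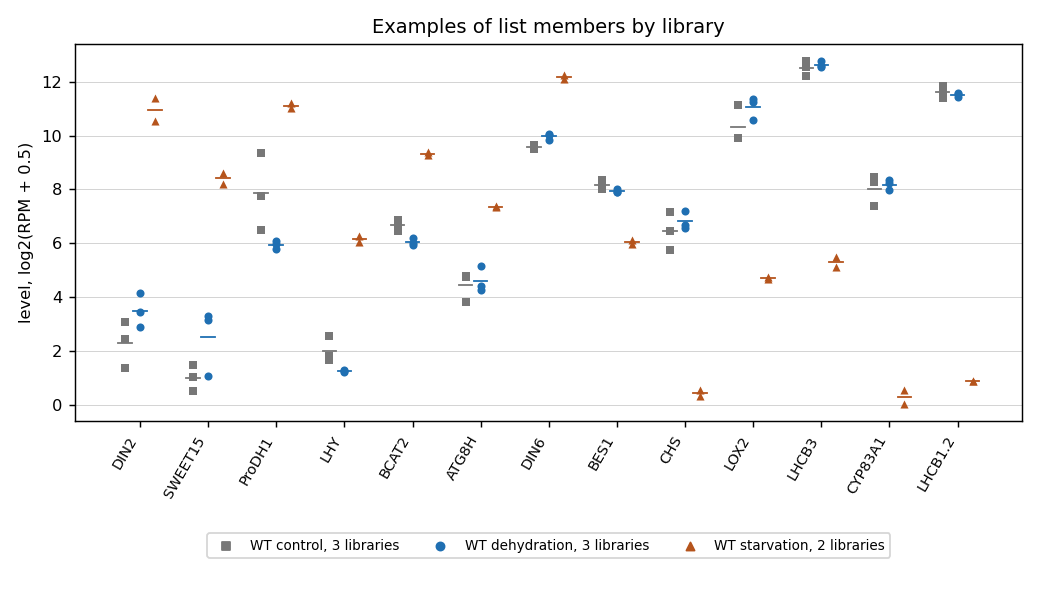
Levels of 13 list members, as log2(RPM + 0.5), in 3 WT control (grey squares), 3 WT dehydration (blue circles) and 2 WT starvation libraries (orange triangles), with short bars at group means. For the 7 genes from DIN2 to DIN6 both starvation libraries lie above all dehydration libraries, and for the 6 from BES1 to LHCB1.2 they lie below.

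Genes of specialised metabolism were higher in dehydration than in starvation. All 15 glucosinolate genes were called in that direction (median -3.27). Their sums were 87.0 to 100.2 RPM in starvation, 1259 to 1844 in dehydration and 1128 to 2024 in the WT controls. CYP83A1 and BCAT4, enzymes of the methionine-derived branch, were 0.539 and 0.965 RPM against 301, 322 and 253 (log2 -7.88, SE 0.31, adjusted p = 3.17e-19) and 0.707 and 0.586 RPM against 203, 219.8 and 260.2 (log2 -7.63, SE 0.38, adjusted p = 1.01e-16). MYB29, a regulator of that branch, was at 0 in both starvation libraries and at 17.9, 17.8 and 8.74 RPM in dehydration, at least 145-fold higher. In the tryptophan-derived branch CYP79B3, CYP83B1 and CYP79B2 differed by -3.78, -3.27 and -1.55, the CYP79B2 call being lost without dehydration 1 or starvation 2. Flavonoid and anthocyanin genes were higher in dehydration in 11 of 12 members (median -2.60, or -3.05 with the 2 genes at 0 in starvation set to the floor). Their sums were 17.2 to 19.6 RPM in starvation, 149.8 to 233.9 in dehydration and 90.6 to 279.7 in the WT controls. CHS, chalcone synthase, was 0.775 and 1.00 RPM against 94.5, 146 and 103 (log2 -6.35, SE 0.40, adjusted p = 2.91e-14), and CHI, the next enzyme, was the member not called (log2 0.29).

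Jasmonate genes were higher in dehydration in 11 of 18 members and in starvation in 4 (median -1.19). Sums of the list were 1109 to 1298 RPM in starvation, 6409 to 8771 in dehydration and 3394 to 7588 in the WT controls. VSP1 and VSP2, storage proteins that respond to jasmonate and are close copies, were 0.404 and 0.586 RPM against 385, 568 and 782 (log2 -9.13, SE 0.45, adjusted p = 9.53e-17) and 6.70 and 6.41 RPM against 1062, 1980 and 2134 (log2 -7.87, SE 0.52, adjusted p = 8.14e-14). LOX2 and AOC2, enzymes of jasmonate synthesis in the chloroplast, differed by -6.33 and -5.23. The 4 members higher in starvation were JAZ repressors, with JAZ7 at 86.7 and 88.2 RPM against 3.99, 5.89 and 8.502 (log2 3.79, SE 0.37, adjusted p = 4.49e-10) and JAZ8, JAZ1 and JAZ6 at 1.46, 1.04 and 0.92 on the log2 scale. The JAZ8 call is lost without dehydration 1 or starvation 1, and those for JAZ1 and JAZ6 without starvation 2, which leaves 2 members higher in starvation. Among salicylic acid and defence genes 8 of 20 were higher in dehydration and 3 in starvation. Sums of that list were 352.7 to 380 RPM in starvation, 573.3 to 1613 in dehydration and 469.7 to 889.5 in the WT controls. PR2, a secreted glucanase, was 2.09 and 1.90 RPM against 694, 345 and 187 (log2 -7.16, SE 0.54, adjusted p = 1.6e-12), and PR5 and PR1 differed by -5.26 and -3.17, while ICS1, the main synthesis enzyme, was not called (log2 -0.32). GRX480, a glutaredoxin, was 63.4 and 54.0 RPM against 6.19, 6.74 and 9.83 (log2 2.89, SE 0.37, adjusted p = 1.06e-07). Heat shock genes were called higher in starvation in 4 of 12, led by HSP17.4 and HSFA2 (log2 2.80 and 2.22), and in dehydration in 2.

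Markers of single cell types moved as well, and their part in the results above was not tested. Xylem markers were higher in dehydration in 7 of 7, with sums of 0.81 to 1.28 RPM in starvation and 43.7 to 52.8 in dehydration, led by the vessel proteases XCP2 and XCP1 (log2 -4.99 and -4.47), and the defining factor VND7 was at 0 in both starvation libraries. Guard cell markers were higher in dehydration in 5 of 7 (sums of 21.0 to 26.6 against 37.9 to 41.7 RPM), while FAMA, the factor that forms guard cells, was not called (log2 0.28). The guard cell count fell to 2 without starvation 1 and to 3 without starvation 2 or dehydration 1. The call for GC1 is lost without dehydration 3, starvation 1 or starvation 2, that for MYB60 without dehydration 1, starvation 1 or starvation 2, and that for KAT1 without dehydration 1, dehydration 2 or starvation 1. Epidermis markers were higher in dehydration in 4 of 5 (sums of 662 to 768 against 2213 to 3054 RPM), or in 2 without starvation 1, where ATML1 and PDF2 lose their calls. Phloem markers were called once each way, SWEET11 higher in starvation (log2 1.25) and the sucrose loader SUC2 higher in dehydration (log2 -1.94). Floral markers were called higher in starvation in 2 of 7 (sums of 18.8 to 22.6 against 3.6 to 5.6 RPM), the petal and stamen factors PI, at 13.2 and 16.3 RPM against 0.447, 0.613 and 0.717 (log2 3.81, SE 0.38, adjusted p = 6.97e-10), and AP3 (log2 1.02), the AP3 call being lost without starvation 2, which leaves 1. The defining floral genes AG, AP1 and SEP3 were not called and lay below 2 RPM in all 5 libraries. The mesophyll markers, all photosynthetic, were higher in dehydration in 6 of 6 (sums of 2011 to 2189 against 43430 to 45550 RPM). Of 6 housekeeping genes ACT2 was higher in starvation, at 723 and 869 RPM against 378, 468 and 247 (log2 1.17, SE 0.29, adjusted p = 0.00103), and UBQ10, GAPC2, UBC21, TIP41 and PP2AA3 were not called, with differences of -0.31, 0.11, 0.31, -0.31 and 0.53. PP2AA3 is called higher in starvation without dehydration 2, which makes 2.

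Over all genes with a symbol, the largest called differences in starvation included genes outside the lists. TPX2, a thioredoxin-dependent peroxidase, was 2406 and 2049 RPM against 7.67, 11.3 and 6.59 (log2 7.98, SE 0.37, adjusted p = 1.53e-17), a 261-fold ratio of the means. XTH25, a wall enzyme, was 242 and 194 RPM against 1.07, 0.749 and 0.785 (log2 7.32, SE 0.95, adjusted p = 1.24e-07). GAT1_2.1, a glutamine amidotransferase, was 287 and 325 RPM against 2.89, 2.93 and 1.37 (log2 6.78, SE 0.64, adjusted p = 2e-10). In each the groups stood far apart, and so they did for SOM, a zinc finger factor that holds back germination, at 132 and 143 RPM against 0.585, 0.885 and 1.06 (log2 6.70). The locus of the microRNA precursor MIR172a was 217 and 146 RPM against 0.825, 1.19 and 2.15 (log2 6.62), which counts the precursor transcript and not the mature microRNA. UCC2, a copper-binding uclacyanin, GLYI4, a glyoxalase-like protein, and CYP81D11, a cytochrome P450 induced by xenobiotics, differed by 6.30, 6.26 and 6.26, and LEA7 and DIN2 complete the 10. The 10 largest differences in the other direction were those of LHCB1.2, VSP1, LHCB1.1, CYP83A1, VSP2, CYP81F4, XTH7, MLP423, BCAT4 and GSTU20. Of these not yet described, CYP81F4 modifies indole glucosinolates (log2 -7.82), XTH7 is a wall enzyme at 0.135 and 0.0345 RPM against 110.3, 152 and 132 (log2 -7.81), MLP423 is a major latex protein-like gene (log2 -7.74) and GSTU20 a glutathione transferase (log2 -7.53).

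The same contrast in the mutants, in libraries of their own, mostly had the sign seen in WT. Of the genes called higher in dehydration in WT, 96% had that sign in atg7-2, 98.9% in DSK2 RNAi, 97.3% in bes1-D and 99.2% in bri1-301. Of those called higher in starvation, the shares were 74.5%, 95.1%, 94.7% and 97.1%. Across all genes Pearson's r with WT was 0.79, 0.932, 0.902 and 0.943 in the same order, as a description over genes and with no p. In all 4 mutants 9138 of the 11181 called genes (81.7%) had the sign of WT. The size of the difference depended on genotype in 9378 of 19824 genes (47.3%, limma F-test of 4 interaction terms, adjusted p under 0.05), of which 5765 were called in WT. The mutant starvation libraries sloped with log2 transcript length by 0.68 and 0.76 in atg7-2 and by 0.48 and 0.65 in DSK2 RNAi. In bes1-D they sloped by -0.20 and -0.63 and in bri1-301 by -0.14 and 0.74, against -0.18 and 0.00094 in WT. With the length trend removed 9338 genes depended on genotype, and the part of these slopes in the shares above was not tested. BES1 differed by -1.91 in WT and by -3.82, -2.57, -2.29 and -1.72 in atg7-2 and DSK2 RNAi, then in bes1-D and bri1-301 (adjusted p = 4.07e-06 for the dependence on genotype). DSK2B differed by 0.58 in WT and by 0.60, 3.11, 0.31 and 0.56 in the same order (adjusted p = 7.13e-10). The 3.11 is that of DSK2 RNAi, the line named for RNAi against DSK2. Reads of its construct could not be told apart from those of the gene. LHCB1.2, LEA7, RAB18, COR15A, DIN2 and ProDH1 did not pass that test (adjusted p = 0.43, 0.364, 0.865, 0.528, 0.569 and 0.514), which does not show that they are alike in all genotypes.

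**Figure D5:**
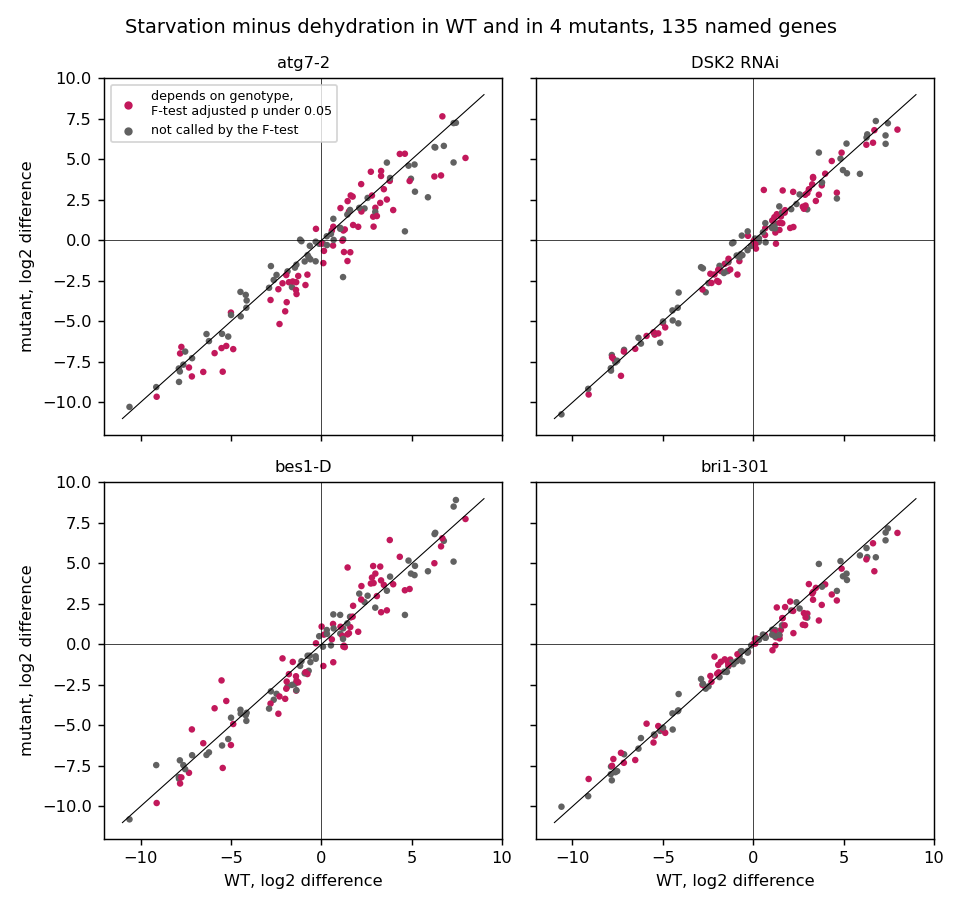
Starvation minus dehydration in log2(RPM + 0.5) for 135 named genes, WT (horizontal) against each mutant (vertical, 5 libraries each); pink points depend on genotype by the F-test (69 genes), grey points are not called by it, and the line marks equal differences. Of the 120 named genes called in WT, 114 had the same sign in atg7-2, 119 in DSK2 RNAi, 116 in bes1-D and 118 in bri1-301.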

How the data were processed

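Leaf total RNA was sequenced as 50-base single-end reads, per the labels' protocols. The submitters' processing notes name GSNAP, DESeq2 and TAIR10. How strand and reads shared by copies were handled is not stated there. The authors deposited 1 signal per gene and library, named RPM in the file headers, for 40 of 64 labelled libraries, and 24 libraries were not analysed here. Each value was a whole number of reads within 0.01 read (100% of values), at 26.33 to 29.81 reads per RPM. Of 33366 table lines 4591 without a gene identifier were left out, and 28009 of 28775 identifiers matched TAIR10.1.

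Genes at 1 RPM or more in 2 libraries were kept. limma 3.58.1 (R 4.3.3) was fitted to log2(RPM + 0.5) of all 40 libraries with 15 group means, 25 residual degrees of freedom and an intensity trend, two-sided, with Benjamini-Hochberg adjusted p. A moderated F-test of 4 interaction terms gave the dependence on genotype. edgeR 4.0.16 and DESeq2 1.42.0 on recovered reads were alternatives, and the limma fit was run on simulated data. It recovered 28 of 100 genes changed 2-fold and 85 of 100 changed 4-fold, with 5 false calls. Far fewer genes changed there than were called here, so these shares do not carry over. A gene not called is not shown to be alike in both stresses. The named genes were up to 2 called members per list and direction with 5 RPM or more in the higher group, the 10 largest called, non-overlapping differences per direction at 20 RPM or more, and a fixed set of pathway and housekeeping genes. Members and lists were chosen with earlier results of these data known.

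Whether the replicate numbers pair the libraries was left undecided. Deviations from the group means of starvation and dehydration libraries numbered 1 correlated at -0.49 and of those numbered 2 at 0.553. With only 2 starvation libraries, the deviations of one mirror those of the other, so these correlations cannot decide it.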

Additional observations from a re-analysis of the deposited data

Results flagged for a closer look

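The difference between starvation and dehydration depended on genotype in 9378 genes and in 69 of the 135 named genes (limma F-test of 4 interaction terms, adjusted p under 0.05). Of the named genes called in WT, 4 that passed this test had a called difference of the opposite sign in 1 mutant. A further 5, MYB96, BR6OX2, PBC1, ACT2 and NCED3, passed it with an opposite sign in 1 or 2 mutants that was not called there. PIP1;5, an aquaporin, differed by 1.604 in WT and by -0.73, 1.06, 1.07 and 1.62 in atg7-2 and DSK2 RNAi, then in bes1-D and bri1-301 (adjusted p = 0.000318 for the dependence on genotype). GLN1;3 differed by 0.66 in WT and by 0.84, 0.75, -1.10 and 0.45 in the same order (adjusted p = 2.97e-05). SARD4, an enzyme of pipecolate synthesis, differed by 1.45 in WT and by -1.27, 0.65, 0.62 and 0.56 in the mutants (adjusted p = 0.000993). SWEET11, a sucrose exporter, differed by 1.25 in WT and by -0.72, -0.20, -0.08 and 0.44 in the mutants (adjusted p = 0.00685). No sample was tested as an outlier, since the groups hold 2 and 3 libraries.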

How the results depend on the processing

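Over 21 alternatives the number of genes called ran from 9057 to 14387 (11181 as reported) and the share of them higher in starvation from 40.7% to 49.8% (46.1% as reported), and in none of them did a called gene change to a call in the opposite direction. Leaving out 1 library gave 9057 to 11604 calls and 8534 to 10377 genes that depend on genotype. edgeR called 12036 genes, DESeq2 12328, limma after TMM scaling 11916, and limma on the 5 WT stress libraries alone 9664. With a replicate block of genotype and number over all libraries 11773 genes were called, and with a replicate block in the 5 WT stress libraries alone 14065. In the latter fit dehydration 3 is the only library of its number, so the block takes it out of the contrast. Whether the numbers pair the libraries could not be decided. Of 135 named genes 110 kept their side of the threshold in every alternative. VPS15, which was not called (0.01), was called higher in dehydration (-0.74) in the 5 WT stress libraries with the replicate block and in the 4 without dehydration 3. Both fits take dehydration 3 out of the contrast, and why the sign turned without it was not tested. Of 1470 list counts under alternatives 1382 stayed within 1.5 times. Depth limits the genes near 3 reads per library, and 2 starvation libraries limit the estimate of their spread, which the fit shares over all groups.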
